A study of Mus musculus with 2 samples.

Results

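The 9 genes described here control the passage of mouse mammary basal cells through G1 of the cell cycle. They are the D-type cyclins Ccnd1, Ccnd2 and Ccnd3, their kinase partners Cdk4 and Cdk6, the inhibitor Cdkn1b (p27), the pocket proteins Rb1 and Rbl2, and the transcription factor gene Myc. They were taken by symbol from a table of 15239 genes, and all 9 were found. Messenger RNA had been sequenced from Cdk14-sh cells, which carried a short hairpin RNA against the cyclin-dependent kinase Cdk14, and from Scramble control cells with a scrambled hairpin. Both groups were labelled as normal mammary gland, and the labels give no strain, age, number of animals or time after the hairpin. With 1 library in each group there is no replicate check of any difference, and no test across samples was made. The labels are not at one on the material, since the design text speaks of human breast cancer cells and the protocol for RNA extraction of retinas. As every one of the 15239 identifiers is a mouse gene, the cells are described as in the sample labels.

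D-type cyclins are made when growth factors act on a cell. They bind Cdk4 and Cdk6, and the active kinases phosphorylate the retinoblastoma protein family, which releases the E2F transcription factors that switch on genes for DNA replication. The point at which this no longer depends on growth factors is the restriction point. p27 holds cyclin-dependent kinases back, and Myc, itself a growth factor target, promotes transcription of cell growth genes through E-box sequences. In many tissues Ccnd1 and Myc respond to Wnt signalling, a pathway in which Cdk14 acts at the membrane by promoting phosphorylation of the Wnt coreceptor.

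RefSeq promoter windows (GRCm38.p6, from 250 bases before to 50 bases after a start site) were at hand for 5 of the 9 genes: Ccnd3, Cdk4, Cdk6, Cdkn1b and Rbl2. The windows shown are those of genes that were higher (Cdk4, and both start sites of Ccnd3) or lower (Cdkn1b and Rbl2) in Cdk14-sh. Each is given 5′ to 3′ on the strand of its gene, which is the plus strand for all 4 genes, and capitals mark every match, on either strand, to 8 motifs. These were the E-box CACGTG, which Myc binds with Max, the core CTTTGA of the TCF/LEF site of Wnt signalling, the E2F sites in the form TTTCCCGC and in the form TTTGGCGC, the GC box GGGCGG, the CCAAT box, the AP-1 site TGANTCA, and the core TGACGT of the cyclic AMP response element.
Cdk4, chr10:127063285-127063584: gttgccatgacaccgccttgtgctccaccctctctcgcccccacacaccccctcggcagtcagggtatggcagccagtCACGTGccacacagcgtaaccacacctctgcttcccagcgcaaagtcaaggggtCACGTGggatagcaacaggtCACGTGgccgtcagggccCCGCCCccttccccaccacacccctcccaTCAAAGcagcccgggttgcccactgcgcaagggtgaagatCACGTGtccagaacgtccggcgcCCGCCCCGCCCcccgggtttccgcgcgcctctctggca
Ccnd3, first start site, chr17:47504801-47505100: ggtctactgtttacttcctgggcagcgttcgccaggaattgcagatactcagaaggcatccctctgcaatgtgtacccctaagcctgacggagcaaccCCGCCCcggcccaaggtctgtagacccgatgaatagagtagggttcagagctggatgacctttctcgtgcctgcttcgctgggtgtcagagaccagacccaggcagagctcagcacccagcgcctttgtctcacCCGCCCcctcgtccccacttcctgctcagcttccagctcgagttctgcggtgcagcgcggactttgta
Ccnd3, second start site, chr17:47593217-47593516: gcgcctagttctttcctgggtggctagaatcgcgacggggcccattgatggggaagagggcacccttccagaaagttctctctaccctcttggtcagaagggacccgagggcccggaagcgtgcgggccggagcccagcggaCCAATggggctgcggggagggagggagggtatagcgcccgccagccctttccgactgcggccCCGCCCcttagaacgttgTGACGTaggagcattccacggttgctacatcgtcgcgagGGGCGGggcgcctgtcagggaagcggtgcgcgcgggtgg
Cdkn1b, chr6:134920151-134920450: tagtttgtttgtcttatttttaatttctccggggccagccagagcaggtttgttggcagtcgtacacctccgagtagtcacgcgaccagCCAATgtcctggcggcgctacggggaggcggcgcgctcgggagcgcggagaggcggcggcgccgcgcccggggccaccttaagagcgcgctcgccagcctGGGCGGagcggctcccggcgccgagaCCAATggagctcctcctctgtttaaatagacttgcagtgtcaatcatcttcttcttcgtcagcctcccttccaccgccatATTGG
Rbl2, chr8:91069807-91070106: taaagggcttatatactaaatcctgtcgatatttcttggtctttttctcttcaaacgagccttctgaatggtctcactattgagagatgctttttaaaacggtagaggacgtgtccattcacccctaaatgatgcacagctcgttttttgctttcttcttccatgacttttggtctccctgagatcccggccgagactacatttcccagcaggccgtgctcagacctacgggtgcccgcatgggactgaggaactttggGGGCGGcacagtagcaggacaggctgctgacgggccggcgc
The Cdk4 window held 4 E-boxes, beginning 172, 118, 98 and 11 bases before the start site. At least 1 E-box occurs in 7.15% of the 32851 RefSeq windows of the same length, and at least 4 occur in 8 windows. The same window held 1 match to CTTTGA, read on the other strand, which 16% of all windows hold, and 3 GC boxes, of which the last 2 overlap by 1 base. Both Ccnd3 windows had 2 GC boxes and the second start site also had 1 CCAAT and 1 TGACGT. Cdkn1b had 3 matches to CCAAT and 1 GC box, and Rbl2 had 1 GC box, where 37.4% of all windows hold CCAAT and 35.7% a GC box. The window of Cdk6, not printed, had 1 E-box. Neither E2F form was found in these windows; 1.07% and 0.514% of all windows hold them, TTTCCCGC first. AP-1 matches occur in 7.81% and TGACGT in 7.51% of all windows.

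The values are FPKM, the fragments counted for a gene relative to the length of its exons and to the total of its library. They corresponded to totals of 5088593 fragments in Cdk14-sh and 5093462 in Scramble control, recovered from the smallest steps of the values. Ratios are Cdk14-sh over Scramble control, and the interval after each ratio is an exact 95% binomial interval of the fragments behind it. It covers counting error alone and compares the 2 libraries, not the 2 conditions. The targeted gene Cdk14 was at 0.713 FPKM in Cdk14-sh and 2.06 FPKM in Scramble control, a ratio of 0.345 (0.259 to 0.457). On the scale of log2(FPKM + 1) its log2 ratio was -0.84, short of 2-fold. Of genes averaging 1 FPKM or more, 17.0% were as low or lower. Labelled as basal, the cells had the basal keratin Krt14 at 994 FPKM in Cdk14-sh and 1199 FPKM in Scramble control, and smooth muscle actin Acta2 at 696 FPKM in Cdk14-sh and 1095 FPKM in Scramble control. Of the 7 basal markers 3 were higher and 4 lower in Cdk14-sh, and 1 was past 2-fold in each direction. Those higher were the basal keratin Krt5 (ratio 1.87), the basal transcription factor gene Trp63 (2.83) and the oxytocin receptor gene Oxtr (1.45), and the one past 2-fold lower was the smooth muscle myosin gene Myh11 (0.446). The photoreceptor gene Gnat1 was at 0.130 FPKM in Cdk14-sh and 1.88 FPKM in Scramble control. Markers of other cells of the gland differed between the libraries as well. Of 5 measured endothelial markers, 5 were at least 2-fold lower in Cdk14-sh, where 13.5% of all measured genes were. Their summed level was 7.61 FPKM against 133 in Scramble control, of which Plvap made up 83.0. Emcn and Tek had 4 and 3 fragments in Cdk14-sh and passed the filter on low values through Scramble control alone. Of 4 measured immune markers, 4 were at least 2-fold higher, where 14.3% of all measured genes were, with a sum of 354 FPKM in Cdk14-sh and 79.1 in Scramble control. The sum was carried by 3 genes of MHC class II, Cd74, H2-Ab1 and H2-Aa, at 175, 125 and 50.2 FPKM in Cdk14-sh. In Scramble control these 3 were at 49.0, 23.6 and 5.45 FPKM. The other one, Csf1r, was at 4.23 FPKM in Cdk14-sh and 1.045 in Scramble control. The pan-leukocyte gene Ptprc was at 0.247 FPKM in Cdk14-sh and 0.482 in Scramble control. In Cdk14-sh the sum of 3 pericyte markers was 57.2 FPKM, that of 3 fibroblast markers 57.8 and that of 4 luminal markers 417 FPKM. In Scramble control these sums were 127, 112 and 906 FPKM. All 3 pericyte markers were at least 2-fold lower, and of these Abcc9 passed the filter on low values through Scramble control alone. The fibroblast and luminal sums were carried by abundant genes, and their members did not all differ in one direction. Of the fibroblast markers Dcn was lower (ratio 0.395), while Col1a1 (1.99) and Col1a2 (2.71) were higher. Of the luminal markers the keratins Krt8 (0.488) and Krt18 (0.277) were at least 2-fold lower and Krt19 (2.09) at least 2-fold higher. The hormone receptor genes Esr1, Pgr and Prlr, under a mean of 1 FPKM and so outside the sum, were at 1.55, 0.391 and 1.77 FPKM in Cdk14-sh and at 0.0862, 0.0115 and 0.154 FPKM in Scramble control. The part of other cell types in the levels of the 9 genes was not tested, and in bulk samples fewer cells of a type and less RNA per cell cannot be told apart.

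Among the 9 genes, 3 were higher in Cdk14-sh by 2-fold or more, 2 were lower by as much and 4 were neither, counted on the scale of log2(FPKM + 1). Of the 12819 genes that averaged 1 FPKM or more (measured genes below), 14.3% were at least 2-fold higher, 13.5% at least 2-fold lower, and 27.8% either. All 9 genes passed this filter on low values. The 3 higher ones were the D-type cyclins and the 2 lower ones were the pocket proteins. The median log2 ratio was 0.14 over the 9 genes and 0.02 over all measured genes. The counting interval of the ratio lay off 1 for 8 of the 9 genes, Cdk6 being the exception, but the same held for 69% of 12782 genes with an interval, so being beyond counting error did not set these genes apart.

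**Figure D1:**
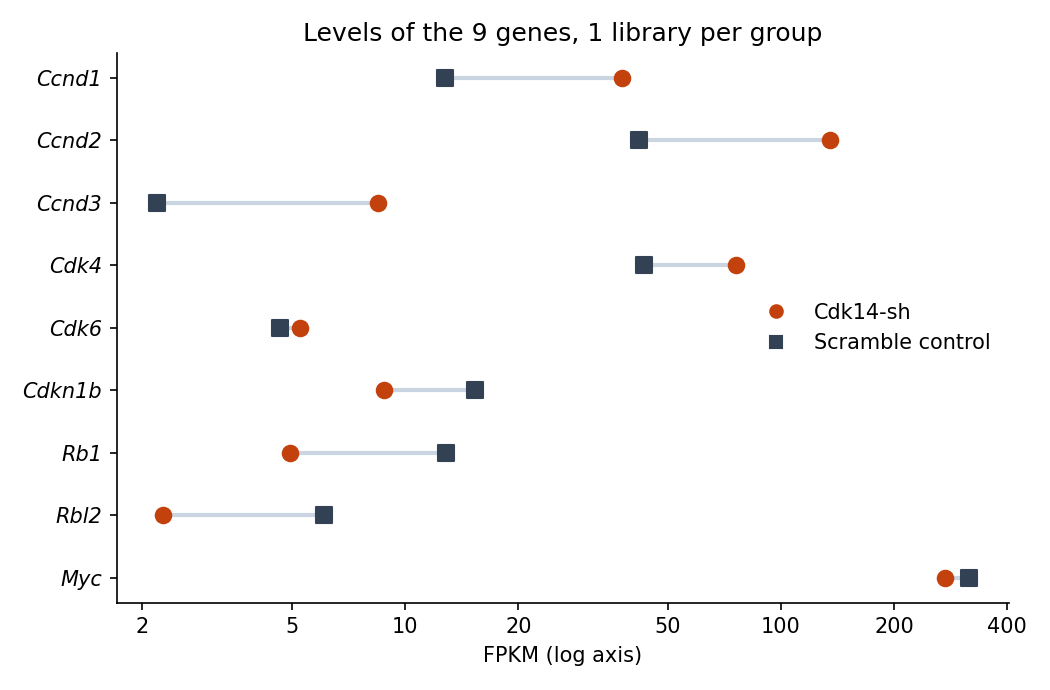
FPKM (log axis) of the 9 genes, with 1 point for each library: circles for Cdk14-sh and squares for Scramble control, with no error bars. The 3 D-type cyclins and Cdk4 lie higher in Cdk14-sh, Cdkn1b, Rb1 and Rbl2 lie lower, and Cdk6 and Myc have their points close together.

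The D-type cyclins were all higher in Cdk14-sh. Ccnd2, the most abundant of them, was at 135 FPKM in Cdk14-sh and 41.8 FPKM in Scramble control, from 6454.5 Cdk14-sh and 2004 Scramble control fragments. Its ratio was 3.22 (3.07 to 3.39), and its log2 ratio of 1.67 was reached or exceeded by 5.47% of measured genes. Ccnd2 (ENSMUSG00000000184) lies on chromosome 6 from 127125162 to 127152193 on the minus strand (GRCm38). Ccnd1, which encodes the cyclin often amplified in human breast cancer, was at 37.6 FPKM in Cdk14-sh and 12.8 FPKM in Scramble control. That is a ratio of 2.95 (2.59 to 3.37) from 902 Cdk14-sh and 306 Scramble control fragments, with a log2 ratio of 1.49 that 7.04% of measured genes reached or exceeded. The gene (ENSMUSG00000070348) occupies chromosome 7 from 144929931 to 144939925 on the minus strand. Ccnd3 was the least abundant D cyclin in both libraries, at 8.49 FPKM in Cdk14-sh and 2.19 FPKM in Scramble control. Its ratio of 3.87 (3.09 to 4.89) was the highest of the 3, from 379.25 Cdk14-sh and 98 Scramble control fragments, although the intervals of Ccnd2 and Ccnd3 overlap. On the log2(FPKM + 1) scale Ccnd3 was at 1.57, below Ccnd2, since the pseudocount weighs more on low values, and 6.23% of measured genes were as high or higher. Ccnd3 (ENSMUSG00000034165) is on the plus strand of chromosome 17, from 47505051 to 47599691.

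The total of the D cyclins was 181 FPKM in Cdk14-sh and 56.8 FPKM in Scramble control, while their proportions were nearly alike. Ccnd2 made up 74.5% of the total in Cdk14-sh (73.3 to 75.6) and 73.7% in Scramble control (71.5 to 75.7). Ccnd1 made up 20.8% in Cdk14-sh (19.7 to 21.97) and 22.5% in Scramble control (20.4 to 24.6). For Ccnd3 the shares were 4.69% (4.24 to 5.18) in Cdk14-sh and 3.86% (3.15 to 4.69) in Scramble control. For each of the 3 the counting intervals of the 2 libraries overlapped. Counted as fragments without division by length, Ccnd2 made up 83.4% in Cdk14-sh and 83.2% in Scramble control, since its exons are the longest, at 9409 bases.

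**Figure D2:**
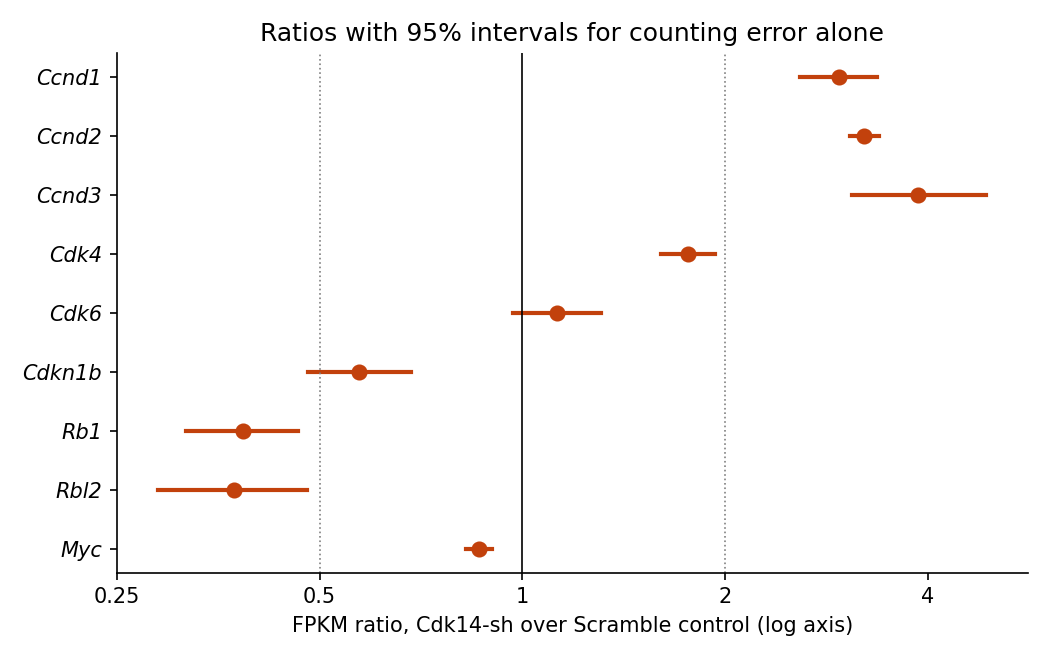
FPKM ratio of Cdk14-sh over Scramble control (log axis) for the 9 genes, with bars for the 95% interval of counting error alone, a solid line at 1 and dotted lines at 0.5 and 2. The intervals of Ccnd1, Ccnd2 and Ccnd3 lie above 2, those of Rb1 and Rbl2 below 0.5, and that of Cdk6 spans 1.

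The 2 kinases that bind D cyclins were not alike in size of difference. Cdk4 was at 76.1 FPKM in Cdk14-sh and 43.2 FPKM in Scramble control, from 1258.25 Cdk14-sh and 715.25 Scramble control fragments. The ratio was 1.76 (1.61 to 1.93), short of 2-fold, and 18.9% of measured genes had as high a log2 ratio or a higher one. Cdk4 (ENSMUSG00000006728) spans 127063534 to 127067920 of chromosome 10 on the plus strand, and its promoter window is the one with 4 E-boxes above. Cdk6, the close relative with the same substrates, was at 5.24 FPKM in Cdk14-sh and 4.66 FPKM in Scramble control. Its ratio of 1.12 had an interval from 0.967 to 1.31, which includes no difference and leaves out 1.5-fold in either direction. Cdk6 (ENSMUSG00000040274) lies on the plus strand of chromosome 5 from 3341485 to 3531008, on the same chromosome as Cdk14, which begins at 4803391. Cdk4 made up 93.6% of the summed FPKM of both kinases in Cdk14-sh and 90.3% in Scramble control. The D cyclin total was 2.22 times the kinase total in Cdk14-sh and 1.19 times in Scramble control.

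Cdkn1b, the gene of the inhibitor p27, was lower in Cdk14-sh but not by 2-fold. It was at 8.81 FPKM in Cdk14-sh and 15.4 FPKM in Scramble control, from 204 Cdk14-sh and 356.5 Scramble control fragments. The ratio was 0.573 (0.480 to 0.682), and 19.7% of measured genes had as low a log2 ratio or a lower one. The gene (ENSMUSG00000003031) is on the plus strand of chromosome 6 from 134920401 to 134925513, and its exons overlap no other annotated gene. Per FPKM of Cdkn1b there were 20.5 FPKM of D cyclins in Cdk14-sh and 3.69 in Scramble control. p27 protein is controlled to a large part by its degradation, which these data do not measure.

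Both pocket protein genes were lower in Cdk14-sh, and by similar ratios. Rb1, the retinoblastoma gene, was at 4.93 FPKM in Cdk14-sh and 12.8 FPKM in Scramble control, from 151 Cdk14-sh and 393.5 Scramble control fragments. Its ratio was 0.384 (0.316 to 0.465) and its log2 ratio -1.22, and 9.50% of measured genes were as low or lower. Rb1 (ENSMUSG00000022105) covers 73183673 to 73325822 of chromosome 14 on the minus strand. Rbl2, which encodes p130, the pocket protein of resting cells, was at 2.26 FPKM in Cdk14-sh and 6.08 FPKM in Scramble control. That is a ratio of 0.372 (0.288 to 0.478) and a log2 ratio of -1.12, from about 87.1 Cdk14-sh and 234 Scramble control fragments. Its values were not multiples of 0.25 fragments with the annotated length, so these fragment numbers are approximate. Rbl2 (ENSMUSG00000031666) is on the plus strand of chromosome 8 from 91070057 to 91123844. Rb1 exceeded Rbl2 by 2.18 times in Cdk14-sh and 2.11 times in Scramble control, a nearly equal proportion. The D cyclin total was 25.1 times the total of Rb1 and Rbl2 in Cdk14-sh and 3.0 times in Scramble control.

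Myc was the most abundant of the 9 genes in both libraries and differed least from 1 in ratio after Cdk6. It was at 273 FPKM in Cdk14-sh and 316 FPKM in Scramble control, from 3768 Cdk14-sh and 4370.5 Scramble control fragments, and ranked 194th of 15224 gene symbols in Cdk14-sh and 142nd in Scramble control. The ratio was 0.863 (0.826 to 0.902) and its interval narrow, as many fragments were behind it. Its log2 ratio was -0.21, and 39.0% of measured genes had as low a value or a lower one. Myc (ENSMUSG00000022346) lies on the plus strand of chromosome 15 from 61985391 to 61990374 and shares no exonic base with another annotated gene. Of the 2 genes known as Wnt targets, Ccnd1 was thus higher and Myc slightly lower in the same library.

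**Figure D3:**
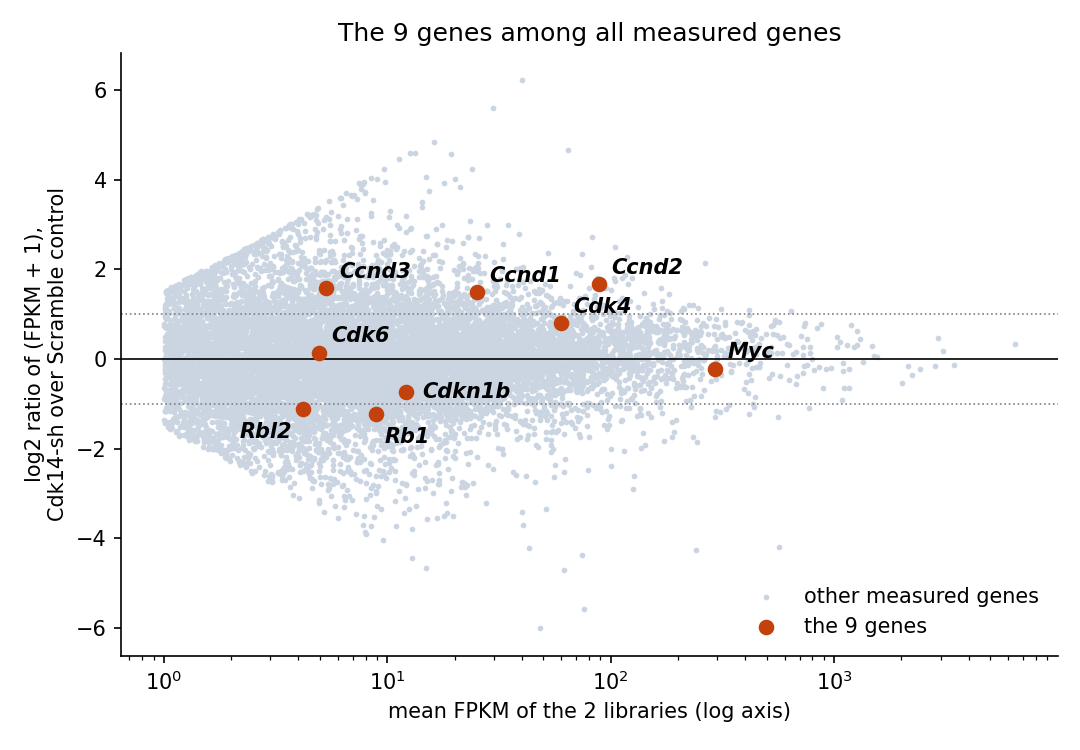
Mean FPKM of the 2 libraries (log axis) against the log2 ratio of (FPKM + 1), Cdk14-sh over Scramble control, for all measured genes in grey and the 9 genes as large labelled points, with dotted lines at 2-fold. Ccnd1, Ccnd2 and Ccnd3 lie above the upper line and Rb1 and Rbl2 below the lower one, each with grey points farther from 0 at like levels.

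The order of levels differed between the libraries below Myc. In Cdk14-sh it ran Myc, Ccnd2, Cdk4, Ccnd1, Cdkn1b, Ccnd3, Cdk6, Rb1 and Rbl2. Neighbours whose 95% counting intervals overlapped there were Cdkn1b with Ccnd3 and Cdk6 with Rb1. In Scramble control the order was Myc, Cdk4, Ccnd2, Cdkn1b, Rb1, Ccnd1, Rbl2, Cdk6 and Ccnd3, with overlapping neighbours Cdk4 and Ccnd2, Cdkn1b and Rb1, and Rb1 and Ccnd1. Ccnd3, at the bottom of the control order, stood above both pocket proteins and Cdk6 in Cdk14-sh.

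Exons of 7 of the 9 genes are shared in part with genes on the opposite strand, and the sources used here do not say whether the counting was by strand. The partner had a ratio on the same side of 1 as the gene itself in each of the 6 genes with a listed partner. At the Ccnd2 locus the antisense gene Gm43126 was at 135 FPKM in Cdk14-sh and 38.0 FPKM in Scramble control, close to Ccnd2 itself. Of its 429 exonic bases 372 are also exon of Ccnd2, and how much of its level came from Ccnd2 reads was not tested. Oraov1, which shares 23.4% of the exonic bases of Ccnd1, was at 8.74 FPKM in Cdk14-sh and 2.68 in Scramble control. Tspan31, which shares 19.7% of those of Cdk4, was at 113 FPKM in Cdk14-sh and 65.8 in Scramble control. With every fragment of the listed partners subtracted, the ratio was 3.21 (3.05 to 3.38) for Ccnd2 and 2.81 (2.40 to 3.31) for Ccnd1. For Ccnd3, Cdk4, Rb1 and Rbl2 the partners held more fragments than the gene in at least 1 library, so the reads of the gene and its partner cannot be told apart by subtraction. A processed pseudogene of Ccnd3 has 881 bases at 96.3% identity to its transcript, which makes the Ccnd3 level less certain, and Cdk6 has matches of 202 to 388 bases at 90.1% to 96.1% identity in 4 other genes (Gm16505, Gm21321, Gm49080 and Gm49103). No match of 200 bases or more at 90% identity was found for the longest coding transcript of Rb1, Cdkn1b or Myc. For Rb1 this transcript has 4656 bases, against 6015 exonic bases of the gene. Exons of Rb1 share 488 bases with Rcbtb2 and 408 with Lpar6 on the opposite strand.

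The rest of the pathway was described through 9 lists, whose counts stand beside the shares over all measured genes. In lists this short, a single gene moves the share widely. Of cyclin E, Cdk2 and their activators, just downstream of the D cyclins, 1 of 4 measured genes was at least 2-fold higher and 1 lower, against 14.3% higher and 13.5% lower over all measured genes. Ccne1, which encodes cyclin E1, the activator of Cdk2, was at 0.295 FPKM in Cdk14-sh and 5.68 FPKM in Scramble control, from 4 Cdk14-sh and 77 Scramble control fragments (ratio 0.0520, 0.0138 to 0.139). Ccne2, which encodes cyclin E2, was at 1.90 FPKM in Cdk14-sh and 1.15 FPKM in Scramble control, with an interval of the ratio from 0.925 to 3.01 that includes 1. Cdc25a, the phosphatase that activates Cdk2, was at 4.24 FPKM in Cdk14-sh and 1.22 in Scramble control (ratio 3.46, 2.52 to 4.84). Cdk2 itself was at 28.0 FPKM in Cdk14-sh and 55.9 FPKM in Scramble control, just within 2-fold on the log2(FPKM + 1) scale.

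Of the inhibitors of cyclin-dependent kinases other than p27, 1 of 4 measured genes was at least 2-fold higher and 1 lower, where 14.3% and 13.5% of all measured genes were. Cdkn1c (p57), of the same family as p27, was at 197 FPKM in Cdk14-sh and 39.7 FPKM in Scramble control. Its ratio of 4.96 (4.46 to 5.53) is above that of any D cyclin, though its interval overlaps that of Ccnd3. Cdkn2d (p19), an inhibitor that binds Cdk4 and Cdk6 directly, was at 8.74 FPKM in Cdk14-sh and 30.1 in Scramble control, a ratio of 0.291 (0.220 to 0.381). Cdkn1a (p21), the most abundant inhibitor, was at 240 FPKM in Cdk14-sh and 243 FPKM in Scramble control, with an interval of the ratio from 0.944 to 1.03. The 3 measured genes of the kinase that activates cyclin-dependent kinases (Cdk7, Ccnh and Mnat1) were all within 2-fold on the same scale.

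E2F factors and their DP partners had no gene at least 2-fold higher and 2 of 7 at least 2-fold lower, against 14.3% higher and 13.5% lower over all measured genes. These were E2f4, the E2F that acts with pocket proteins as a repressor in resting cells, at 18.0 FPKM in Cdk14-sh and 38.3 in Scramble control (ratio 0.469, 0.398 to 0.551), and Tfdp2, at 2.52 FPKM in Cdk14-sh and 6.05 in Scramble control (0.417, 0.348 to 0.497). The E2F that activates S phase genes, E2f1, was low in both libraries, at 0.997 FPKM in Cdk14-sh and 2.05 in Scramble control. Of 6 measured partners of pocket proteins, 1 was at least 2-fold higher on the log2(FPKM + 1) scale, where 14.3% of all measured genes were. This was Lin37, a subunit of the MuvB core that joins p130 and E2f4 in the DREAM repressor. It was at 23.1 FPKM in Cdk14-sh and 5.80 FPKM in Scramble control (3.99, 2.82 to 5.77). Lin54, of the same list, was at 6.91 FPKM in Cdk14-sh and 3.04 FPKM in Scramble control (2.27, 1.77 to 2.95). That is higher by 2-fold in FPKM but not on the log2(FPKM + 1) scale. Subunits of the DREAM repressor thus differed in opposite directions, with Rbl2 and E2f4 lower and Lin37 higher.

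Of 13 measured E2F target genes 4 were at least 2-fold higher and none lower by as much, where 14.3% and 13.5% of all measured genes were, and their median log2 ratio was 0.55. Of these 4, Mcm5, Mcm6 and Ccna2 had at most 1.5 fragments in Scramble control and passed the filter on low values through Cdk14-sh alone. With a required mean of 5 FPKM the count was 0, but all 4 and most of the list fell below that mean. The median includes the genes with few fragments and was not computed without them. Neither the count nor the median is therefore read as a difference of the list. Mcm5 and Mcm6, subunits of the replicative helicase, were at 6.10 and 5.14 FPKM in Cdk14-sh, and in Scramble control at 0.0492 and 0.0421 FPKM, which is 1 fragment each. Their ratios were 124 (21.9 to 4942) and 122 (21.5 to 4862). Their fellow subunits did not stand so far apart: Mcm2 was at 1.84 FPKM in Cdk14-sh and 1.98 FPKM in Scramble control, and Mcm7 at 5.15 FPKM in Cdk14-sh and 3.89 in Scramble control. Mcm4, the most abundant Mcm gene of the list, was at 46.7 FPKM in Cdk14-sh and 23.4 in Scramble control (1.99, 1.77 to 2.24). Its log2 ratio of 0.96 was just short of 2-fold. Tyms, which makes thymidylate for DNA, was at 7.47 FPKM in Cdk14-sh and 0.967 in Scramble control (7.72, 5.27 to 11.7). The proliferation marker Mki67 was at 0.859 FPKM in Cdk14-sh and 1.51 FPKM in Scramble control, and the ribonucleotide reductase subunit Rrm2 at 19.2 FPKM in Cdk14-sh and 34.9 in Scramble control, both lower and within 2-fold on the log2(FPKM + 1) scale. Cdt1 (ratio 1.90), Rrm1 (1.62) and Top2a (1.64) were higher and Pcna (0.869) lower, all within 2-fold on that scale. Members of the list thus stood on both sides of 0, with 9 above and 4 below, and 3 of its measured genes had fewer than 3 fragments in one library.

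**Figure D4:**
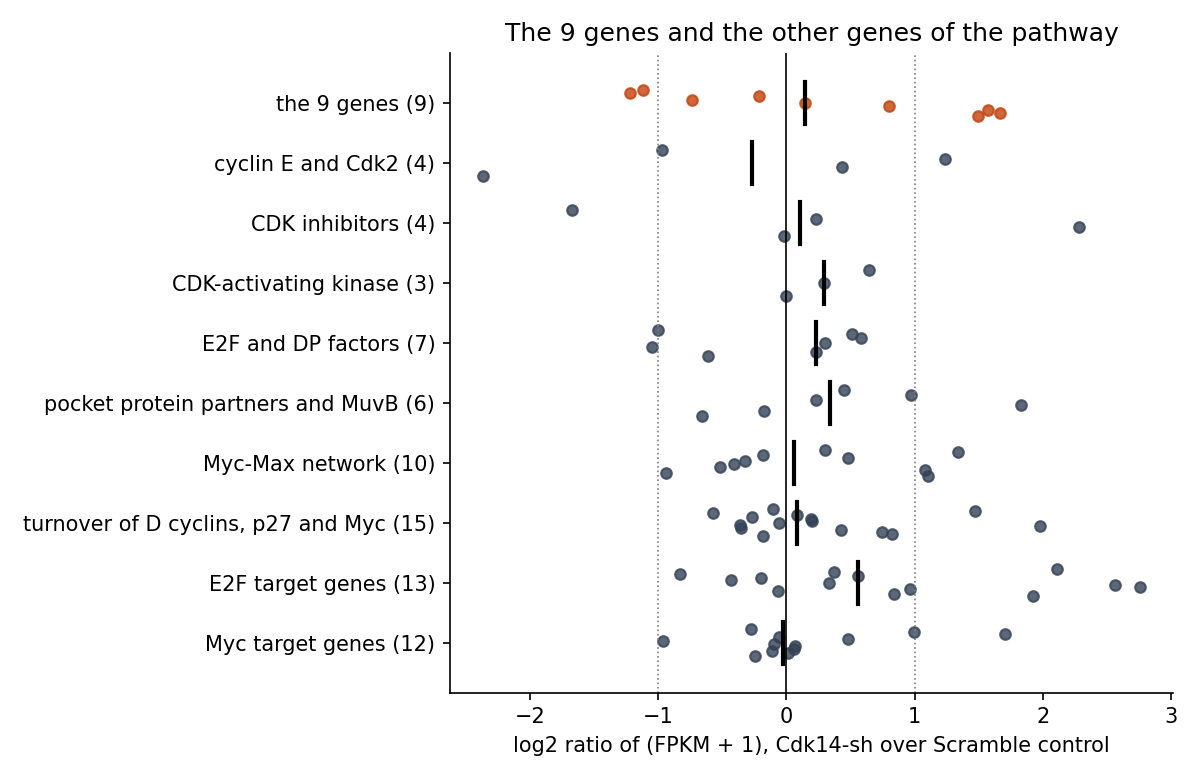
Log2 ratio of (FPKM + 1), Cdk14-sh over Scramble control, for each measured gene of the 9 genes and of 9 pathway lists, with the number of measured genes in parentheses, a thick bar at each median and dotted lines at 2-fold. The medians lie between -0.27 and 0.55, and the 9 genes have 3 points past the upper line and 2 past the lower one.

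Genes around Myc were within 2-fold for the most part, as were measured genes in general, of which 27.8% were past 2-fold in either direction. In the network of Max and its partners 3 of 10 measured genes were at least 2-fold higher and none lower, against 14.3% and 13.5% of all measured genes. Mga, a Max partner that represses transcription, was at 2.34 FPKM in Cdk14-sh and 5.41 FPKM in Scramble control (ratio 0.432, 0.361 to 0.515), lower by 2-fold in FPKM but not on the log2(FPKM + 1) scale. Max, the obligate partner of Myc at E-boxes, was at 32.6 FPKM in Cdk14-sh and 14.6 FPKM in Scramble control (ratio 2.23, 1.93 to 2.58). Mxi1, which competes with Myc for Max, was at 3.78 FPKM in Cdk14-sh and 0.891 in Scramble control (4.24, 2.85 to 6.49), and Mlx, a Max-like partner, at 8.82 FPKM in Cdk14-sh and 3.66 in Scramble control (2.41, 1.63 to 3.64). Of 12 genes known as Myc targets, 1 was at least 2-fold higher and none lower, against 14.3% and 13.5% of all measured genes. The other 11 were within 2-fold on the log2(FPKM + 1) scale, and the median log2 ratio of the 12 was -0.02. Srm, the spermidine synthase gene, stood at the limit, at 199.8 FPKM in Cdk14-sh and 99.8 FPKM in Scramble control, with an interval of the FPKM ratio from 1.84 to 2.18. The one beyond 2-fold was Polr1b, a subunit of RNA polymerase I, at 9.21 FPKM in Cdk14-sh and 2.13 FPKM in Scramble control (4.32, 3.28 to 5.78). Genes that degrade D cyclins, p27 and Myc had 2 of 15 at least 2-fold higher and none lower, a share near the 14.3% of all measured genes that were higher. Fbxo31, a ubiquitin ligase receptor for cyclin D1, was at 3.23 FPKM in Cdk14-sh and 0.0716 FPKM in Scramble control, from 90 Cdk14-sh and 2 Scramble control fragments (45.04, 12.1 to 378), and it passed the filter on low values through Cdk14-sh alone. With a required mean of 5 FPKM, 1 gene of this list was at least 2-fold higher. Ubac1, part of a ligase for p27, was at 10.005 FPKM in Cdk14-sh and 2.98 in Scramble control (3.35, 2.34 to 4.90). Skp2, the receptor by which p27 is marked for degradation, was at 1.57 FPKM in Cdk14-sh and 2.82 in Scramble control, and Fbxw7, a receptor for Myc, was at 9.09 FPKM in Cdk14-sh and 9.50 in Scramble control.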

How the data were processed

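Messenger RNA of mouse mammary basal cells was sequenced in 2 libraries, 1 per group, made with a stranded kit, per the labels' protocols. Bowtie 0.12.2, featureCounts and Subread 1.5.1 were used, per the submitters' processing notes, which name mm8 and GRCm38 as builds and give neither a role. The authors deposited 1 table of FPKM values with a column per library, and it has no value of 0. The sources used here do not give how multiply mapped or overlapping reads were counted.

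Union exon lengths came from GENCODE M21 (GRCm38) for 15191 of 15239 rows. FPKM times length was scaled so that the commonest low value is 1 fragment, a choice made after seeing the data. Then 80.7% of Cdk14-sh and 81.1% of Scramble control values were multiples of 0.25 fragments (tolerance 0.005), and recovered fragments summed to 111.7% and 112.4% of the totals. Intervals are exact binomial (Clopper-Pearson, 95%) on fragments that are not independent molecules. The log2 ratio uses a pseudocount of 1, which understates the differences of low genes. A mean of at least 1 FPKM was required, and of rows sharing a symbol the highest was used. The arithmetic was tested on simulated data. Near-identical transcripts were sought with BLAST 2.17.0. Python 3.11.15, numpy 2.4.6, pandas 2.3.3, scipy 1.17.1 and matplotlib 3.10.9 were used.

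The 9 genes and the lists were chosen with earlier results of these data known. Named genes are the 9, Cdk14, and up to 3 highest and 3 lowest of each list past 2-fold. Others were named after their values were seen. These were Ccne2, Cdk2, Cdkn1a, Cdk7, Ccnh, Mnat1, E2f1, Lin54, Ccna2, Mcm2, Mcm4, Mcm7, Cdt1, Rrm1, Top2a, Pcna, Mki67, Rrm2, Mga, Srm, Skp2, Fbxw7, the overlap partners and the markers. Likeness of pattern across samples was not computed, since 2 libraries give 1 difference per gene. Alternatives were pseudocounts, scalings, filters, fold limits, summed rows, fragments in place of FPKM and narrower counting units.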

Additional observations from a re-analysis of the deposited data

How the results depend on the processing

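No paired analysis was possible because each group held 1 library, and for the same reason none could be left out. Under 7 alternatives, 55 of 63 log2 ratios of the 9 genes stayed within their counting intervals and none changed sign. Among the 7, summing rows that share a symbol left all 9 genes at the reported values, so its 9 agreements say nothing of stability. With a pseudocount of 0.1, Ccnd3 was at 1.91 and Rbl2 at -1.39. With a pseudocount of 5, Ccnd1, Ccnd2, Ccnd3, Rb1 and Rbl2 were at 1.26, 1.58, 0.91, -0.85 and -0.61, so Ccnd3 and both pocket proteins fell short of 2-fold, and Myc was at -0.28 when both libraries were scaled to the same summed FPKM (TPM). Of the 4 scalings, TPM changed the ratio of the libraries by a factor of 0.955, and the others multiplied Cdk14-sh by 0.964 to 0.995. TPM also raised the values of both libraries, so the pseudocount and the filter on low values weighed less. There were 14224 measured genes with TPM and 12819 as reported. Changes with TPM therefore mix these effects with the scaling. Genes of the 9 at least 2-fold lower, 2 as reported, numbered 0 with a pseudocount of 5 and 1 where a mean of 5 FPKM was required. None was past a limit of 4-fold, so both counts were 0 there. The 9 lists held 4, 4, 3, 7, 6, 13, 10, 12 and 15 measured genes. Over them together, 13 genes were at least 2-fold higher and 4 lower, where 14.3% and 13.5% of all measured genes were. Of the 13, Mcm5, Mcm6, Ccna2 and Fbxo31 had at most 2 fragments in Scramble control. Of the 4, Ccne1 had 4 fragments in Cdk14-sh. The counts of 13 and 4 became 5 and 2 with a pseudocount of 5, and 6 and 2 with a required mean of 5 FPKM. They were 20 and 10 at a limit of 1.5-fold and 4 and 1 at 4-fold, and 8 were lower with TPM. With a required mean of 5 FPKM the E2F target genes at least 2-fold higher numbered 0 instead of 4, most of that list being below this mean. Myc targets at least 2-fold higher, 1 as reported, numbered 2 with a pseudocount of 0.1, and 1 instead of 0 was lower under 3 scalings. Of the Max network 1 gene instead of 0 was lower with a pseudocount of 0.1 and with TPM. Pocket protein partners at least 2-fold higher, 1 as reported, numbered 2 with a pseudocount of 0.1 and 3 with TPM. Among all measured genes, 1828 were at least 2-fold higher and 1734 lower, against 677 and 611 with a pseudocount of 5, 946 and 908 with that required mean, 3239 and 3139 at 1.5-fold and 419 and 345 at 4-fold. Without division by length, Ccnd1 made up 11.7% of D cyclin fragments in Cdk14-sh and 12.7% in Scramble control, and Ccnd2 83.4% and 83.2%. With 0.5 fragments as 1 independent count, the interval of Cdk6 was 1.01 to 1.25 and no longer included 1. Subtraction of partner fragments was added after seeing the data and could be computed for Ccnd1 and Ccnd2 alone. Depth limits the genes with few fragments in one library, such as Ccne1, Fbxo31, Mcm5 and Mcm6.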

Other observations

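Because Cdk4 has a promoter window with 4 E-boxes and was higher in Cdk14-sh, the other RefSeq windows with this sequence were looked up after the values were seen. At least 4 E-boxes occur in windows of 6 genes, and 4 of these are listed in the table. Beside Cdk4, Lamp1, a lysosomal membrane protein gene, was at 193 FPKM in Cdk14-sh and 116 FPKM in Scramble control, Mfsd1 at 31.3 FPKM in Cdk14-sh and 28.3 in Scramble control, and Zmym6 at 2.15 FPKM in Cdk14-sh and 0.511 in Scramble control. Genes with E-boxes in general did not stand apart: of 981 measured genes with at least 1, 15% were higher and 11.1% lower in Cdk14-sh by 2-fold or more, with a median log2 ratio of 0.05. Of 103 measured genes with at least 2, 11.7% were higher and 12.6% lower, with a median of -0.11. Over all 8118 measured genes with a window, 14.7% were higher and 12.8% lower, also with a median of 0.05. For the 1124 measured genes whose window holds the TCF/LEF core CTTTGA, 15% were higher and 13.9% lower, with a median of 0.03.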
